A study of Mus musculus with 8 samples.

Results

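The Dusp genes encode dual-specificity phosphatases. Every probe set of the array annotated to a single symbol made of Dusp and a number was taken, which gave 13 of 12422 probe sets and 9 of 8251 named genes: Dusp1, Dusp2, Dusp6, Dusp8, Dusp9, Dusp11, Dusp12, Dusp16 and Dusp19. Members were taken by name alone, but the family was chosen with earlier results of these data known. Expression was measured in visual cortex of wild-type C57Bl6 mice at postnatal day 24. An eye had been taken out on postnatal day 20, which left 4 days of deprivation. Deprived cortex is the hemisphere opposite the removed eye and non-deprived cortex the hemisphere on the same side, so every sample came from an operated animal and no unoperated cortex is among the samples. Each group has 4 arrays with replicate numbers 1 to 4. The labels name 4 operated mice while the series' design speaks of pooled samples, so an array may hold 1 hemisphere or a pool, and the p-values measure only the spread between these arrays, which may be technical.

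A MAP kinase is switched on when a kinase adds phosphate to a threonine and a tyrosine of its activation loop, and a dual-specificity phosphatase removes both. In neurons, synaptic activity and calcium entry drive the ERK branch of this pathway, and ERK in turn raises transcription of some of these phosphatases, which closes a negative feedback loop. Dusp1 and Dusp2 are inducible nuclear enzymes, Dusp6 and Dusp9 are cytoplasmic enzymes that prefer ERK, and Dusp8 and Dusp16 act mainly on JNK and p38. Dusp11, Dusp12 and Dusp19 are atypical members that lack the kinase-interaction domain. Dusp11 acts on RNA rather than on MAP kinases, so the family name is wider than the function.

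The stretches before the start sites of Dusp1 and Dusp6 are shown because these genes had the most negative differences of the family, deprived minus non-deprived, and differ in the motifs that activity-responsive factors bind. They come from RefSeq on build GRCm38.p6, run 5′ to 3′ on the gene's strand and end at the base before the start. Capitals mark the cAMP response element TGACGTCA or its shorter core TGACG.
Dusp1 (chr17:26508473-26508722, minus strand): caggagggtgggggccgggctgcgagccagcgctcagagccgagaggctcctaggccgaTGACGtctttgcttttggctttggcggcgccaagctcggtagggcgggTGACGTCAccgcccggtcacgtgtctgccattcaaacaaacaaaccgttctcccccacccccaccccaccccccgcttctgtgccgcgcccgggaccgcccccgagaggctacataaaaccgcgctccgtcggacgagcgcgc
Dusp6 (chr10:99262981-99263230, plus strand): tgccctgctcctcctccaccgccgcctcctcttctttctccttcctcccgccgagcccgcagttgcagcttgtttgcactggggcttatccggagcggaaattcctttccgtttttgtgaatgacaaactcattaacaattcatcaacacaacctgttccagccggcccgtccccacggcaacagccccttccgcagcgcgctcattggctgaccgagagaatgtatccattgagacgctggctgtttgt

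The Dusp1 stretch held 1 full element TGACGTCA, from -143 to -136, and a separate core TGACG starting at -191. Both strands were searched, and the full element itself holds the core on each strand. Of 32851 RefSeq windows of 250 bases, 1.55% held TGACGTCA and 17.8% held TGACG. The Dusp6 stretch held neither. It also had no match to the AP-1 motif TGANTCA (in 6.75% of windows) or the CArG box of serum response factor (1.47%). Nor did it match the ETS motif CCGGAA (12%) or the EGR motif GCGGGGGCG (2.57%). The GC box GGGCGG (32.7%) and the palindrome of the glucocorticoid receptor (0.00913%) were absent too. Of these further motifs Dusp1 matched the GC box alone, 3 times. The shorter ETS core GGAA was not searched for, and its letters occur in the Dusp6 stretch. Windows were listed for 7 of the 9 genes, and Dusp8 had 2 full elements, from -107 to -100 and from -63 to -56, in a window that lies within the span annotated for the gene. The core without the full element was also in the windows of Dusp11, from -33 to -29, and Dusp16, from -70 to -66. A match is a run of letters and says nothing of binding.

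Dusp6, the cytoplasmic ERK phosphatase, was lower in every deprived array than in any non-deprived array. Its signal was 2462.4, 2948.1, 2389.3 and 2657.8 in non-deprived replicates 1 to 4, and 1731.0, 1591.5, 1711.8 and 2065.6 in deprived replicates 1 to 4. These are linear MAS5 signal intensities, the value the array software gives for a probe set. The means were 2614 ± 250 and 1775 ± 203 (SD, n = 4). The difference on the log2(signal + pseudocount) scale, deprived minus non-deprived, was -0.56 ± 0.13 (SE), a fold of 0.68 with a 95% interval of 0.557 to 0.83. Each deprived array was also below the non-deprived array of the same number, by -0.50, -0.88, -0.48 and -0.36 on the log2 scale. The widest gap was that of the arrays numbered 2, which held the highest non-deprived and the lowest deprived value. Fewer cells with the transcript and less transcript per cell cannot be told apart in such bulk tissue.

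Dusp1, an immediate-early gene whose nuclear product acts on p38, JNK and ERK, was lower by a similar amount. Its signal was 3268.6, 3461.0, 3065.1 and 2851.5 in non-deprived replicates 1 to 4, and 2103.3, 2771.9, 2075.0 and 2050.3 in deprived replicates 1 to 4. The groups did not overlap, but deprived replicate 2 came close to non-deprived replicate 4, and after quantile normalization they did overlap. The means were 3162 ± 262 and 2250 ± 349 (SD, n = 4), with a log2 difference of -0.50 ± 0.14 (SE) and a fold of 0.709 with a 95% interval of 0.576 to 0.873. Within numbered pairs it was -0.63, -0.32, -0.56 and -0.47. Without deprived replicate 2 the log2 difference was -0.60.

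**Figure D1:**
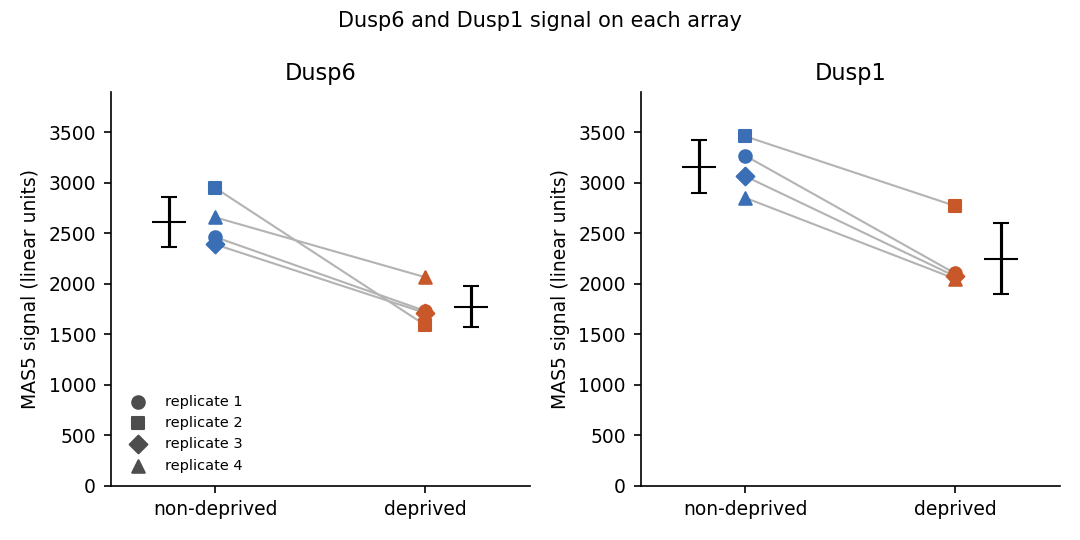
MAS5 signal in linear units (y axis, from 0) of Dusp6 and Dusp1 on each array, with grey lines joining arrays of the same replicate number and black bars at the group mean ± SD of 4 arrays. All 8 lines run downwards, and deprived replicate 2 stands above the other deprived arrays for Dusp1 (2771.9) and below them for Dusp6 (1591.5).

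Neither difference passed the test across all probe sets. Limma's moderated test, fitted without the replicate numbers, gave an unadjusted p of 0.00123 for Dusp6 and of 0.00372 for Dusp1. The adjusted p was 0.995 for each after Benjamini-Hochberg adjustment over the 7453 probe sets past the signal filter. The test called 0 probe sets lower and 0 higher, that is 0% in either direction. At an unadjusted p under 0.05 it had 91 lower (1.22%) and 108 higher (1.45%). By unadjusted p, Dusp6 ranked 5 and Dusp1 ranked 14 of 7453. These ranks moved with single arrays, from 4 (without deprived replicate 2) to 84 (without deprived replicate 4) for Dusp1 and from 4 (without non-deprived replicate 3) to 22 (without deprived replicate 1) for Dusp6, and with the Gapdh ratio as a covariate Dusp6 ranked 71. Groups that did not overlap, with all deprived arrays lower, occurred for 60 probe sets (0.805%), and these 2 Dusp probe sets were among them, of 9 past the filter. Groups apart in the other direction occurred for 92 (1.23%), and no Dusp probe set was among them. The deprived array was lower in 4 of 4 numbered pairs for 6.92% of probe sets and higher in 4 of 4 for 8.95%. With the replicate number as a block, limma gave an unadjusted p of 6.31e-04 for Dusp6 and of 5.69e-04 for Dusp1. They ranked 13 and 12 there, each with an adjusted p of 0.346. That fit had 3.65% of probe sets lower and 3.38% higher at an unadjusted p under 0.05.

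Dusp1 and Dusp6 are bright, and differences of their size were seen in a small share of bright probe sets and of all probe sets alike. Of 818 probe sets at least as bright as Dusp6, 10 (1.22%) had a log2 difference at or below that of Dusp1, and 10 (1.22%) had groups that did not overlap with all deprived arrays lower. Among all 7453, 1.76% lay at or below the log2 difference of Dusp1 and 1.3% at or below that of Dusp6. Both genes varied little within a group. The coefficient of variation of the signal was 9.55% (non-deprived) and 11.5% (deprived) for Dusp6, and 8.3% and 15.5% for Dusp1. For Fos, the AP-1 subunit with the smallest p of all, it was 23.6% and 11%. Of the 500 probe sets nearest in level, 15.2% had a smaller residual SD than Dusp6 and 26.2% a smaller one than Dusp1.

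**Figure D2:**
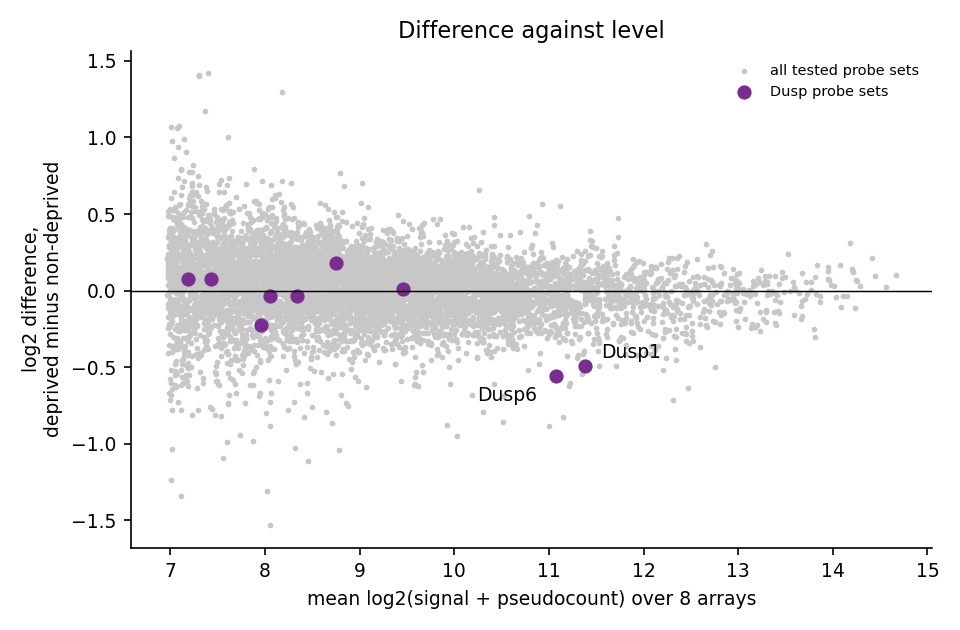
Log2 difference, deprived minus non-deprived (y axis), against the mean log2(signal + pseudocount) over 8 arrays (x axis) for the 7453 tested probe sets (grey) and the 9 Dusp probe sets among them (purple). Dusp1 and Dusp6 sit at the lower edge among bright probe sets, while the other 7 lie between -0.22 and 0.18.

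Within groups the 2 genes did not clearly follow each other from array to array. In Dusp1 the replicate numbers had the same order in both groups, with replicate 2 highest, then 1, 3 and 4. Deprived replicates 1, 3 and 4 were close for Dusp1, at 2103.3, 2075.0 and 2050.3, so their order says little. In Dusp6 replicate 2 was highest among non-deprived and lowest among deprived arrays. With the group means taken out, log2 values of Dusp1 and Dusp6 correlated at r = -0.307 over the 8 arrays. Deprived replicate 2, highest for Dusp1 and lowest for Dusp6, weighs on that value, and r without it was not computed. With the group difference left in, r was 0.717. These correlations describe 8 arrays that share replicate numbers between groups and are given without a test.

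The 5 genes most like each of them had none in common, but some immediate-early genes ranked high with both. The highest Pearson correlation of log2 values with Dusp6 over the 8 arrays was that of Nfil3, a bZIP repressor, at r = 0.973, followed by Hs3st1, a heparan sulfate sulfotransferase, at 0.960, and by the immediate-early genes Ier2 at 0.937, Fos at 0.927 and Junb at 0.924. With group means taken out these were 0.839, 0.866, 0.742, 0.603 and 0.562. For Dusp1 the highest was Rasd1, a Ras-like protein induced by glucocorticoids, at 0.909. Next were the zinc-finger factor Egr1 and the Krebs cycle enzyme subunit Dlst, both at 0.901, the chaperonin subunit Cct5 at 0.898 and the adhesion molecule Vcam1 at 0.890. With group means taken out these were 0.774, 0.729, 0.599, 0.790 and 0.817. Junb went against Dusp1 within groups, at r = -0.603, and the neurotrophin Bdnf with it, at 0.673, against 0.136 for Bdnf and Dusp6. With the group difference left in, Nr4a1 ranked 18 of 6750 with Dusp1 and 7 with Dusp6. Fos ranked 22 and 4, Egr1 2 and 47, Bdnf 7 and 93, and this Junb probe set 155 and 5. With Dusp1, r was 0.838 for Nr4a1 and 0.826 for Fos. Each list was the top 5 of 6750 probe sets, so high values are built into the choice, and Nfil3 (160 and 104 mean signal) and Rasd1 (170 and 124) are dim.

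**Figure D3:**
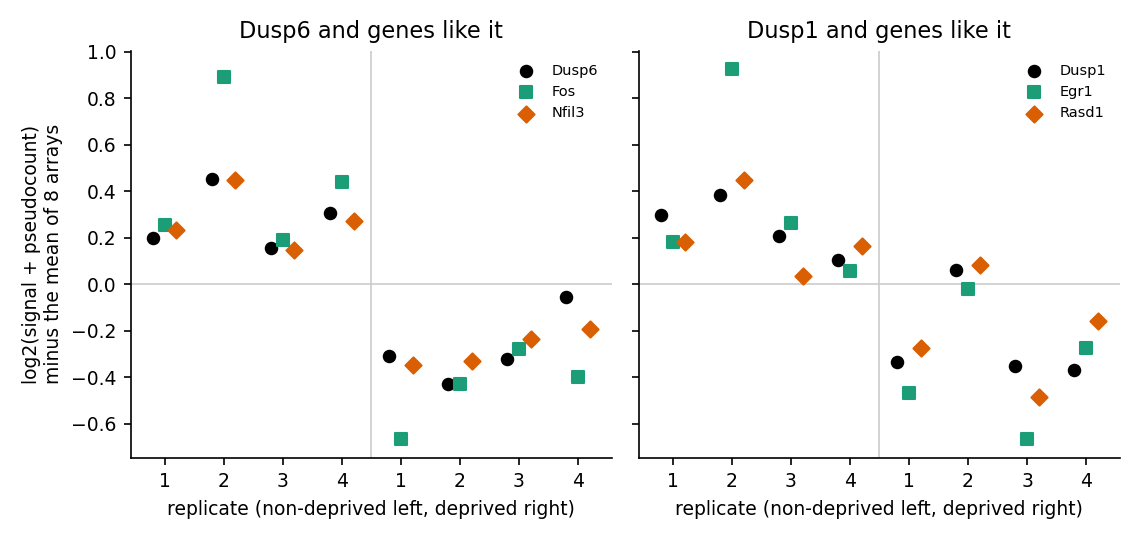
Log2(signal + pseudocount) minus the mean of 8 arrays (y axis) on each array (x axis, non-deprived left and deprived right of the line) for Dusp6 with Fos and Nfil3, and for Dusp1 with Egr1 and Rasd1. Deprived replicate 2 is at 0.063 for Dusp1, near Egr1 (-0.022) and Rasd1 (0.083), and at -0.428 for Dusp6, near Fos (-0.431).

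The other 7 Dusp probe sets past the filter showed no difference beyond their spread. Their log2 differences ran from -0.22 to 0.18 with a median of 0.01, 3 below and 4 above 0, and unadjusted p from 0.354 to 0.967 in limma. With Dusp1 and Dusp6, 5 of 9 were below 0 and the median was -0.03, against 45.1% below 0 and a median of 0.02 over all 7453. That number of 5 was 8 without non-deprived replicate 3 or deprived replicate 1 and 3 without deprived replicate 2. The intervals were wide, so a change as large as that of Dusp6 lies inside those of Dusp2, Dusp16, Dusp19 and the brighter Dusp8 probe set.

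Dusp2, the other nuclear inducible member, had a signal of 179.7, 210.8, 370.3 and 294.8 in non-deprived and 292.8, 127.5, 403.4 and 245.6 in deprived replicates 1 to 4. The groups overlapped fully. The log2 difference was -0.03, with a 95% interval of -0.73 to 0.66 that includes the value of Dusp1. Its residual SD was larger than that of 90.2% of the 500 probe sets nearest in level.

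Dusp8, a JNK and p38 phosphatase prominent in brain, was read by a pair of probe sets. The brighter one had 957.4, 626.8, 495.7 and 746.8 in non-deprived and 1312.2, 584.5, 536.8 and 556.9 in deprived replicates 1 to 4, and its log2 difference was 0.01 (95% interval -0.61 to 0.63). Deprived replicate 1 stood far above the other deprived arrays, and without it the difference was -0.29. The dimmer one had means of 406 ± 135 and 447 ± 66.2 (SD, n = 4) and a log2 difference of 0.18 (-0.31 to 0.67), an interval whose lower end lies above the values of Dusp1 and Dusp6. Dusp16, which also acts on JNK and p38, had 133 ± 52.6 and 138 ± 39.8 and a log2 difference of 0.08 (-0.58 to 0.73).

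The atypical members did not separate the groups. Dusp11, the RNA phosphatase, had a mean of 156 ± 40.9 in non-deprived cortex and 169 ± 53.8 in the deprived hemisphere (SD, n = 4), with a log2 difference of 0.07 (95% interval -0.54 to 0.69). Dusp19, which binds kinases of the JNK pathway, had 254 ± 23.1 and 224 ± 76.9 and -0.22 (-0.73 to 0.28). Dusp12 had nearly equal means, 313 ± 12.9 and 320 ± 105, and a log2 difference of -0.03 (-0.54 to 0.48). Its non-deprived arrays lay between 298.1 and 329.5 and its deprived arrays between 176.8 (replicate 2) and 428.0 (replicate 4).

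**Figure D4:**
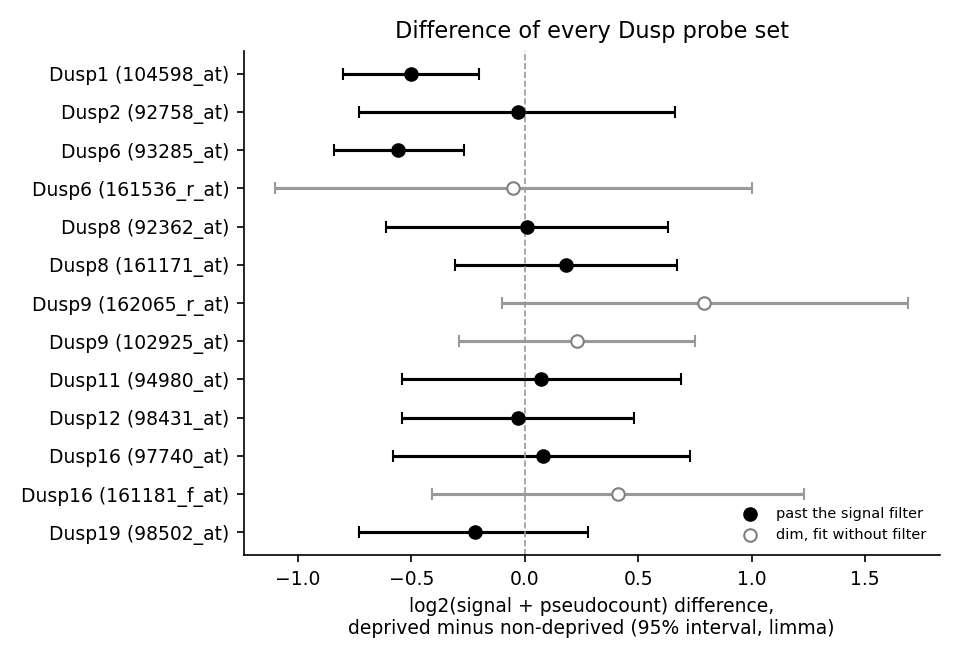
Log2(signal + pseudocount) difference, deprived minus non-deprived (x axis), with its 95% interval from limma for all 13 Dusp probe sets. Filled points passed the signal filter and open points did not, and among the filled points the intervals of Dusp1 and Dusp6 alone leave out 0.

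Another 4 probe sets were dim and stayed below the filter, which corresponds to a signal of about 109.9. They were both Dusp9 probe sets, a further one of Dusp6 and a further one of Dusp16, with signals between 4 and 185.7. The dim Dusp6 probe set read 23.7 ± 20.6 and 24.8 ± 29.8 (SD, n = 4) and did not repeat the difference of the bright one, with a log2 difference of -0.05 and a 95% interval of -1.10 to 1.00 in a fit without the filter. One Dusp9 probe set had 18.1, 81.6, 45.3 and 94.9 in non-deprived and 65.2, 88.1, 101.2 and 185.7 in deprived replicates 1 to 4. The deprived array was higher in 4 of 4 pairs, as for 15.1% of the 4969 probe sets left out as dim, and the log2 difference was 0.79 (-0.10 to 1.69), adjusted p = 0.974 in limma. The 10th percentile of the array's signals, a measure of the low end of the scale, was 13.5 ± 0.718 without and 17.2 ± 2.68 with deprivation (SD, n = 4), and its part in these dim values was not tested. The other Dusp9 probe set read 10.0 ± 7.49 and 13.8 ± 4.39, and the dim Dusp16 probe set 23.4 ± 17.3 and 35.2 ± 20.5.

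The kinases that these phosphatases oppose, and the other brakes on the pathway, gave no call. Of 40 measured genes of 4 lists, 0 passed adjusted over all probe sets, 0 had an unadjusted p under 0.05 in limma in either direction, and 0 separated the groups. Over all probe sets 1.22% were lower and 1.45% higher at that p, and 0.805% and 1.23% separated the groups, so counts of 0 among 40 are near the background and say little about these genes. They comprised 10 measured ERK cascade genes (3 below 0, median log2 difference 0.06), 11 JNK and p38 kinase genes (6 below 0, median 0.00), 11 other feedback regulators and phosphatases (7 below 0, median -0.01) and 8 ERK effector kinases and transcription factors (3 below 0, median 0.11). All 40 lay between -0.20 and 0.34. The gene at the upper end was Sos1, a Ras exchange factor, with 177 ± 21.6 and 233 ± 54.9 (SD, n = 4). Ptpn5, the neuronal tyrosine phosphatase STEP that also inactivates ERK, had 1355 ± 102 and 1192 ± 91.6 and a log2 difference of -0.18 (95% interval -0.46 to 0.09), lower in 4 of 4 pairs. Mknk2, a kinase activated by ERK and p38, was higher in 4 of 4 pairs, at 512 ± 47.1 and 631 ± 91 (SD, n = 4), and its unadjusted p with the replicate block was 0.0347.

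Inducible transcription factors, which share upstream signals with Dusp1 and Dusp6, are given beside them because earlier results of these data had shown them low. Of 15 measured, 0 were called, 13 were below 0, 8 were lower at an unadjusted p under 0.05 (1.22% of all probe sets) and 7 had groups that did not overlap (0.805%), with a median log2 difference of -0.48. Fos (-0.89), Nr4a1 (-0.83), Egr1 (-0.71), Junb (-0.68), Ier2 (-0.62) and Egr2 (-0.61) had lower log2 differences than Dusp6 (-0.56). Fosb was level with it (-0.56), while Jun (0.32) and Fosl2 (0.14) were above 0. Whether the size differed between these genes and the phosphatases was not tested. Of 12 measured glucocorticoid response genes, a list read because Dusp1 is a classic target of the glucocorticoid receptor, 9 were below 0 with a median of -0.10 and 0 were called. The cell cycle inhibitor Cdkn1a had 404 ± 94.3 and 258 ± 58.9 (SD, n = 4) with an unadjusted p of 0.0186. The others with the smallest p were Per1 (-0.28), Mt2 (-0.25) and Nfkbia (-0.16). The 3 genes of that list above 0 were Nr3c1 (0.19), Sgk1 (0.09) and Fkbp5 (0.07). Over all probe sets 45.1% were below 0.

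**Figure D5:**
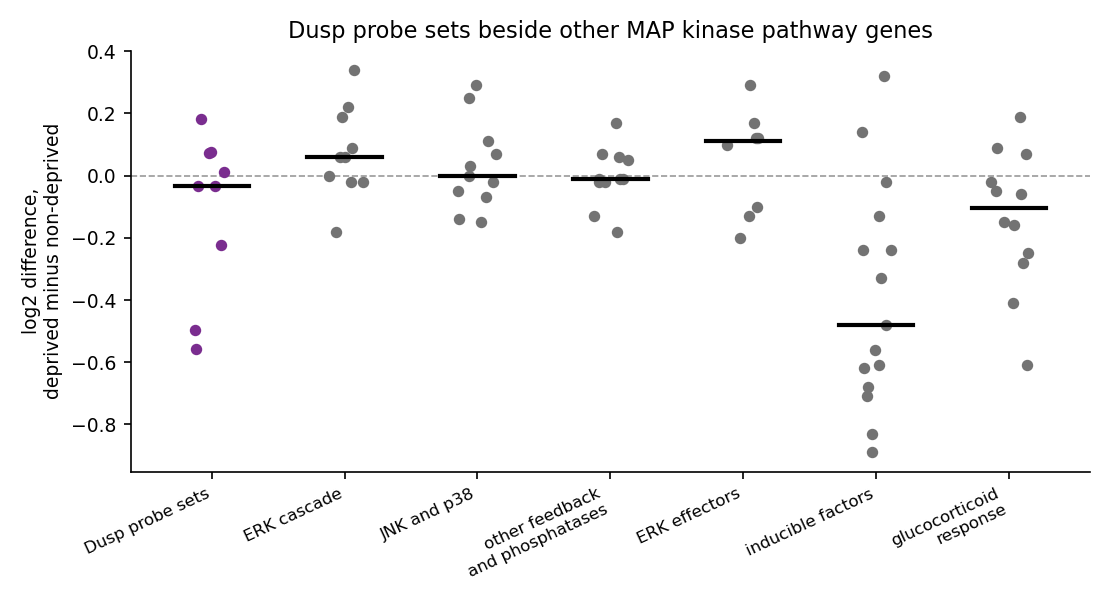
Log2 difference, deprived minus non-deprived (y axis), of the 9 Dusp probe sets past the filter (purple) and of the measured genes of 6 lists (grey, 1 probe set per gene), with a black bar at each median. The medians of the kinase and feedback lists lie between -0.01 and 0.11, that of the inducible factors at -0.48 and that of the glucocorticoid list at -0.10.

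Defining markers of cortical neurons were present in both groups. Of the measured markers, 4 of 5 for neurons (log2 differences -0.25 to 0.03), 3 of 4 for excitatory cortical neurons (-0.34 to 0.12) and 3 of 5 for inhibitory neurons (-0.49 to 0.03) were below 0. Snap25, a synaptic vesicle fusion protein of all neurons, had a mean signal of 15122 without and 14741 with deprivation. Neurod2, a factor of excitatory cortical neurons, had 1420 and 1136, the lowest log2 difference of its list (-0.34). The others there were Neurod6 (-0.26), Tbr1 (-0.04) and Camk2a (0.12). The interneuron peptide Sst had 4097 and 2956, the lowest log2 difference of its list (-0.49). It was lower in 4 of 4 pairs, as were 6.92% of all probe sets. The others of that list were Slc32a1 (-0.06), Gad2 (-0.04), Gad1 (0.02) and Pvalb (0.03). Of 45 measured markers of 10 cell or tissue types, 0 passed in either direction in limma, 0 had an unadjusted p under 0.05, 25 were below 0, and the summed signal of each of the 10 lists overlapped between the groups. With the replicate block 4 were lower (Sst, S100b, Cldn5 and Wfs1) and 2 higher (Glul and Tcf7l2) at an unadjusted p under 0.05, where all probe sets had 3.65% and 3.38%. The part of these markers in the values of Dusp1 and Dusp6 was not tested. The summed signal of the 3 measured thalamus markers ran from 1365 to 1815 without and from 1391 to 1997 with deprivation, and all 3 were above 0, with Tcf7l2 (402 and 498) higher in 4 of 4 pairs. Wfs1, listed here as a marker of hippocampus, was the 1 of 45 whose groups did not overlap, at 997 and 821. Over all probe sets, 0.805% had groups apart with deprived lower and 1.23% with deprived higher. Zbtb20, the other measured gene of that list, had a log2 difference of 0.03. For actin, the signal of the 3′ control probe set over the 5′ one, which tracks RNA degradation, averaged 1.39 ± 0.178 on non-deprived arrays against 1.64 ± 0.239, and for Gapdh 0.898 ± 0.0543 and 0.843 ± 0.0346 (SD, n = 4). With actin's ratio as a term of the fit, the log2 difference was -0.63 for Dusp1 and -0.46 for Dusp6, and with the Gapdh ratio -0.53 and -0.39.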

How the data were processed

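Each probe set has a linear intensity made and deposited by the authors with MAS5 per the submitters' processing notes, version and settings not given in the sources used here. Per the labels, biotin-labelled cRNA from about 10 µg of total RNA was hybridised to 1-colour arrays. No detection calls were among the files used, and the number of arrays limits the precision.

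The table held 12488 probe sets. The 66 control probe sets were removed. Arrays were rescaled to a 2% trimmed mean of 500, which moved values by at most 0.06%, so printed signals are as deposited. Tests used log2(signal + 15.3), the pseudocount being the 10th percentile of signals, which understates changes of dim genes. Probe sets with a mean above the 40th percentile were kept (7453). Of 12422 probe sets, 10833 had 1 symbol in the platform annotation, 396 several and 1193 none. Of those with 1 symbol, 10817 were matched through Entrez identifiers to RefSeq's genes on GRCm38.p6.

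Differences were tested in limma 3.58.1 under R 4.3.3 (linear model, empirical Bayes with a trend in intensity, two-sided, Benjamini-Hochberg over all probe sets, threshold 0.05), tested on simulated data. For lists the brightest probe set stood for a gene. The members and lists were chosen with earlier results of these data known, so no p was adjusted over a list. Named were all Dusp probe sets, the 5 most correlated probe sets for Dusp1 and Dusp6, genes among the 4 smallest p of each list, and Fos, Egr1, Junb, Nr4a1 and Bdnf. Jun, Fosl2, Fosb, Egr2, Fkbp5, Sgk1, Nr3c1, Snap25, Neurod2, Sst, Gad1, S100b, Cldn5, Glul, Tcf7l2 and Wfs1 were named after their values were seen.

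Arrays are numbered in the labels, which leave unsaid what a shared number means. Deviations from group means correlated at 0.158 to 0.422 between same-numbered arrays of the 2 groups, all above the limit of 0.1. Between others they correlated at -0.272 to 0.123. The main test was fitted without the replicate numbers all the same, and their use as a block is given as an alternative. Alternatives were pseudocounts of 1 and 50, no filter or the 60th percentile, quantile and cyclic loess scaling, the replicate block (fixed or random), no trend, array weights, the actin or Gapdh ratio as a covariate, and each array left out. Motifs were counted in RefSeq windows of 250 bases. Plots used matplotlib 3.10.9 (Python 3.11.15).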

Additional observations from a re-analysis of the deposited data

Results flagged for a closer look

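Within 1 group of 4 arrays, a single array stood far from the other 3 in 5 of the 74 groups examined, where chance gives about 1 in 20 (3.7). The gap to the nearest array, as a share of the group's whole range on the log2 scale, was 0.915 for Dusp1, set by deprived replicate 2 as the highest. It was 0.906 for the brighter Dusp8 probe set, set by deprived replicate 1 as the highest. For the kinase gene Map3k5 it was 0.83, set by non-deprived replicate 3 as the lowest, and for Mapkapk2, a kinase downstream of p38, 0.837, set by non-deprived replicate 3 as the highest. Junb had 0.838, set by deprived replicate 4 as the highest.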

How the results depend on the processing

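Dusp1 and Dusp6 stayed below 0 and not called under all 20 alternatives, with log2 differences of -0.63 to -0.45 and -0.63 to -0.39. With an array left out they ran from -0.60 to -0.45 and from -0.63 to -0.50. Unadjusted p in limma was 4.43e-04 to 0.0139 for Dusp1 and 2.05e-04 to 0.0235 for Dusp6, and adjusted p at least 0.257 and 0.192. With the replicate number as a block the differences were -0.50 ± 0.10 and -0.56 ± 0.11 (SE), adjusted p = 0.346 for each, and the block changed no call. The number at an unadjusted p under 0.05 was 272 lower and 252 higher with the block, and over all alternatives 54 to 272 lower and 43 to 352 higher, while 0 were called under any. The smallest adjusted p with the block was 0.116.

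Of the other members, Dusp19 kept its sign under the 19 alternatives in which it was tested, at -0.41 to -0.03 with an array left out (-0.03 without deprived replicate 4, -0.41 without deprived replicate 3). With actin's ratio added as a covariate, the sign turned for Dusp11 (-0.30), Dusp12 (0.24), Dusp16 (-0.29), Dusp2 (0.34), the brighter Dusp8 probe set (-0.12) and the dimmer one (-0.04). Dusp12 was at 0.17 with the Gapdh ratio. Quantile normalization gave -0.02 for Dusp11 and for Dusp16, cyclic loess -0.02 and -0.03, and array weights -0.01 for the brighter Dusp8 probe set. With an array left out the ranges were -0.04 to 0.31 for Dusp11, -0.19 to 0.21 for Dusp12, -0.10 to 0.28 for Dusp16, -0.26 to 0.26 for Dusp2, and -0.29 to 0.17 and -0.01 to 0.37 for the Dusp8 probe sets. The cause was not tested. A stricter filter left 3 of the Dusp probe sets below 0, as fewer were tested. The 4 dim probe sets are near the low end of the signal scale, where the number of arrays and the scaling limit what can be seen.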
